A study of Mus musculus with 22 samples.

Results

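Erg, Fli1 and Ets1, which encode transcription factors of the ETS family, were examined together with 7 genes that mark the cells lining blood vessels (Cldn5, Cdh5, Pecam1, Tie1, Tek, Flt1 and Kdr). These 10 genes are among 55385 genes in a table of RNA-Seq read counts. The tissues were the entorhinal cortex (EC) and hippocampus (HIP) of male mice aged 5-6 months. Erg was selected on its measured values in these libraries, as a gene of a triplicated segment that did not rise, and the other 9 were set beside it as relatives or markers. For that reason the genotype difference of Erg is given below as a description without a test, whereas the other genes and the comparison of the brain regions are tested.

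The animals were 5 wild-type (wt) mice and 6 Ts66Yah littermates on a mixed F1 B6C3B background, and each mouse gave 1 HIP and 1 EC library, or 22 libraries in all. Ts66Yah mice model Down syndrome. They carry a freely segregating minichromosome with the part of mouse chromosome 16 (Mmu16) from Mir155 to the telomere, so that its genes are present in 3 copies instead of 2, and the centromeric Mmu17 part of the parental Ts65Dn minichromosome had been removed by CRISPR/Cas9. The line goes back to a single founder and 2 of its offspring. The minichromosome is inherited through the germ line and is not limited to one cell type.

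ERG and FLI1 are closely related ETS factors that endothelial cells keep expressing in the adult, where ERG is known for holding vessels in a differentiated and quiescent state. ETS factors recognise a short DNA core, GGAA, which is frequent in the regulatory regions of endothelial genes. Among the markers, claudin 5 and VE-cadherin (Cdh5) seal and hold the junctions between endothelial cells, PECAM1 is an adhesion molecule at the same junctions, TIE1 and TEK (TIE2) are the receptors of the angiopoietin system, and FLT1 and KDR are receptors of vascular endothelial growth factor.

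Libraries held between 25900479 and 50105778 counted reads. Levels are given as CPM, read counts brought to a common library size with TMM factors, and differences as log2 fold changes with a standard error (SE). A gene was called different where edgeR's quasi-likelihood test gave a p under 0.05 after Benjamini-Hochberg adjustment over all tested genes. All 4 markers used to define endothelial cells (Cldn5, Cdh5, Pecam1 and Tie1) were detected in every library, the lowest value being 8.57 CPM for Tie1. Bulk tissue was measured, so fewer cells of a type and less RNA per cell cannot be told apart. The animals were separate mice, but the p-values cover only the spread among these few.

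Erg lies on Mmu16 (GRCm38, chromosome 16, 95359169 to 95586593, minus strand) inside the triplicated segment, and its levels overlapped between the genotypes in both regions. In the wt HIP, the 5 libraries held 5.36, 5.68, 5.81, 6.29 and 6.89 CPM. In the Ts66Yah HIP, the lowest of the 6 libraries held 6.15 CPM, the median was 6.43 CPM and the highest held 7.37 CPM. The ranges overlapped, and 2 of the 6 Ts66Yah libraries lay above every wt library. In the wt EC, Erg stood at 6.75, 7.54, 7.69, 7.69 and 8.36 CPM. In the Ts66Yah EC it ran from 6.35 over a median of 7.59 to 8.89 CPM, so that the Ts66Yah libraries reached both below and above the wt range. These levels rested on 142 to 324 reads of Erg per library.

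The mean of Erg was 6.01 ± 0.596 CPM in the wt HIP (SD, n = 5) and 6.59 ± 0.479 CPM in the Ts66Yah HIP (SD, n = 6), that is 0.14 in log2 fold change with an SE of 0.09. In the EC the means were 7.61 ± 0.574 (SD, n = 5) and 7.55 ± 1.10 CPM (SD, n = 6), that is -0.01 in log2 fold change with an SE of 0.11. The copy number ratio of 1.5 would be 0.58 on this scale. These are the values by which Erg had been chosen. Among the 68 tested genes of the segment with a mean of at least 5 CPM in the HIP, the median log2 fold change was 0.58, and that of Erg was the 4th lowest. Among the corresponding 64 genes in the EC the median was 0.58 too, and the value of Erg was the lowest.

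The genes on either side of Erg differed from it in this respect. The 3 tested neighbours on the centromeric side were Dyrk1a, a protein kinase, Gm41505, an antisense transcript, and Kcnj6, a potassium channel subunit; the 3 on the telomeric side were Ets2, Psmg1, a proteasome assembly factor, and Brwd1, a bromodomain protein. In the HIP their log2 fold changes lay between 0.38 for Psmg1 and 0.76 for Gm41505, and 5 of the 6 were called higher in Ts66Yah, Psmg1 not reaching the threshold (edgeR adjusted p = 0.0611). In the EC they lay between 0.46 for Ets2 and 0.71 for Gm41505, and 5 of the 6 were called, the exception being Gm41505 (edgeR adjusted p = 0.253). Calls were common along the whole segment. Among its genes ranked in the previous paragraph, 56 of the 68 were called in the HIP and 44 of the 64 in the EC. Over all tested genes the shares were 0.591% (HIP) and 0.283% (EC). Whether the 6 neighbours differ from the rest of the segment was not tested. Gm41505 overlaps Kcnj6 on the opposite strand, and reads of that pair cannot be told apart if counting ignored strand. The nearest of the 6, Ets2, starts at 95702075 on the plus strand, beyond the 5′ end of Erg.

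The triplicated segment holds 2 more ETS genes among 26 listed for the family, Ets2 and Gabpa, both of broad expression. Ets2 stood at 70.5, 74.6, 77.8, 81.4 and 85.2 CPM in the wt HIP and ran from 104 over a median of 110.1 to 119.8 CPM in the Ts66Yah HIP. Every Ts66Yah library lay above every wt library, by 0.51 in log2 fold change (SE 0.05, adjusted p = 0.000182 by edgeR). In the HIP, the genotype groups were apart in either direction for 1.87% of all tested genes. In the EC, the wt libraries held 90.8, 94.6, 100.2, 101 and 108 CPM of Ets2 and the Ts66Yah libraries 126 to 152 CPM with a median of 136 CPM. The groups were again apart, by 0.46 in log2 fold change (SE 0.06, adjusted p = 0.00351 by edgeR). In the EC, groups were apart for 0.957% of all tested genes.

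Gabpa, the DNA-binding subunit of the GABP complex, gave 24.99, 26.9, 27.3, 28.1 and 31.1 CPM in the wt HIP and 33.1 to 43.0 CPM with a median of 40.5 CPM in the Ts66Yah HIP. Here too the groups did not overlap, beside 1.87% of all tested genes. The log2 fold change was 0.53 (SE 0.07, adjusted p = 0.00197 by edgeR). In the EC the values were 19.3, 19.4, 19.7, 22.2 and 25.6 CPM in wt and 24.6 to 32.1 CPM with a median of 29.6 CPM in Ts66Yah. They overlapped by 1 wt library, and the log2 fold change of 0.46 (SE 0.09) had an edgeR adjusted p of 0.0603. That gene was past the threshold in the EC with DESeq2 (DESeq2 adjusted p = 0.000982), with no filter on low counts and with all 22 libraries in 1 fit, and also without wt replicate 4 or without Ts66Yah replicate 5.

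Of 42 listed endothelial genes, Jam2 and Cyyr1 are the ones within the segment, and both were called higher in Ts66Yah in both regions. Jam2, a junctional adhesion molecule, stood at 38.6, 38.7, 41.0, 43.6 and 47.4 CPM in the wt HIP and at 60.8 to 67.5 CPM with a median of 64.0 CPM in the Ts66Yah HIP. All Ts66Yah libraries exceeded all wt libraries, by 0.62 in log2 fold change (SE 0.06, adjusted p = 3.86e-05 by edgeR). In the EC, Jam2 gave 48.5, 48.5, 49.9, 50.5 and 51.5 CPM in wt and 73.7 to 87.7 CPM with a median of 81.6 CPM in Ts66Yah. Its log2 fold change there was 0.70 (SE 0.06, adjusted p = 9.08e-05 by edgeR), again without overlap. The genotype groups were apart for 1.87% (HIP) and 0.957% (EC) of all tested genes.

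Cyyr1, which encodes a small membrane protein, is expressed at the level of Erg in CPM. It gave 4.51, 5.11, 5.31, 5.37 and 6.15 CPM in the wt HIP and 7.36 to 8.76 CPM with a median of 7.99 CPM in the Ts66Yah HIP. The log2 fold change was 0.61 (SE 0.09, adjusted p = 0.00342 by edgeR). Cyyr1 in the EC stood at 4.74, 5.67, 6.02, 6.32 and 6.64 CPM in wt and 7.74 to 10.3 CPM with a median of 9.52 CPM in Ts66Yah, which is 0.63 in log2 fold change (SE 0.11, adjusted p = 0.0310 by edgeR). Groups did not overlap in either region, beside 1.87% (HIP) and 0.957% (EC) of all tested genes. The EC call of Cyyr1 was lost in 8 of 11 leave-one-library-out fits (replicates 1, 2, 3 and 5 of either genotype), with an adjusted p of up to 0.101 and a log2 fold change between 0.57 and 0.69.

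**Figure D1:**
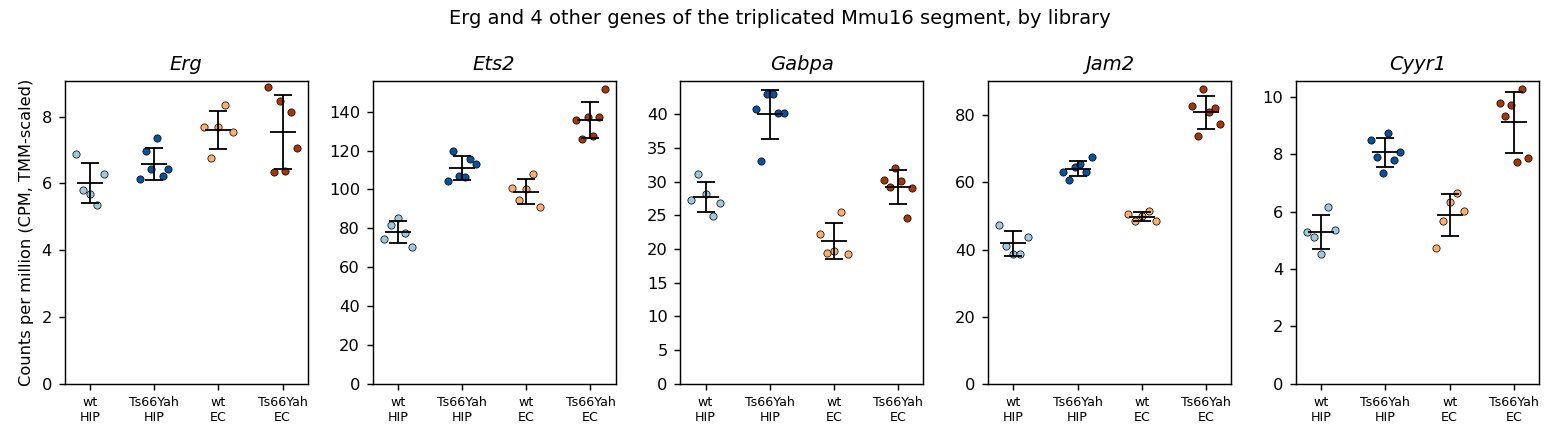
Level of Erg and of 4 other genes of the triplicated segment (Ets2, Gabpa, Jam2, Cyyr1) in CPM by library, with the mean and SD of each group as bars; the y axes start at 0 and differ between panels. Erg overlapped between the genotypes in both regions (HIP means 6.01 and 6.59 CPM), whereas Ets2, Jam2 and Cyyr1 did not overlap in either region. Of all tested genes, 1.87% (HIP) and 0.957% (EC) did not overlap.

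The sequence before the start of Erg was set beside those of 3 markers to show where the ETS core occurs. RefSeq windows were at hand for Erg, Cldn5, Tie1, Tek, Flt1 and Kdr, or 6 of the 10 genes, and the 250 bases before the start were used (GRCm38.p6). The windows of Erg at its 5′-most start (chr16:95586594-95586843, minus strand), Cldn5 (chr16:18776597-18776846, plus strand), Tek (chr4:94739039-94739288, plus strand) and Flt1 (chr5:147726012-147726261, minus strand) hold no annotated exon and are written below 5′ to 3′, with capitals marking GGAA or its reverse complement TTCC.
Erg: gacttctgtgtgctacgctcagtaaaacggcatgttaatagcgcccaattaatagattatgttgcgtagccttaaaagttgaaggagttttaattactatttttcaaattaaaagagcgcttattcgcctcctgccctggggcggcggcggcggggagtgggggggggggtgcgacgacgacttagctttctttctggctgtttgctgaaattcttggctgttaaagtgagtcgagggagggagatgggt
Cldn5: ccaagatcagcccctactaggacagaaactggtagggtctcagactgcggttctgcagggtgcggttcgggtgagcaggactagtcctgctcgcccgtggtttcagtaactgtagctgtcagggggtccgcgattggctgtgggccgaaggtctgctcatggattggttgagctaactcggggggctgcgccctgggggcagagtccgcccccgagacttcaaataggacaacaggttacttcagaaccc
Tek: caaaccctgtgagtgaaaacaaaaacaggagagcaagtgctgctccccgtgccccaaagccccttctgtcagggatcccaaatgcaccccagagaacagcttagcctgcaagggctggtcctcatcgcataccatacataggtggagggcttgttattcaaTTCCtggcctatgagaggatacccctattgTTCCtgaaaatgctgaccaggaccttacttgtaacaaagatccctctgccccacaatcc
Flt1: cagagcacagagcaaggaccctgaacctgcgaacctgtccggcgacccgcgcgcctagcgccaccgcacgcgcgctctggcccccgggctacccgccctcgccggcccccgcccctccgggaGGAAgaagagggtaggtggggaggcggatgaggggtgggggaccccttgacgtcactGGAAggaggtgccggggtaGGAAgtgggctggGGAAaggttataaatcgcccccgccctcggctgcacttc
The core was absent from the Erg and Cldn5 windows, occurred 2 times in the Tek window and 4 times in the Flt1 window. It occurred 7 times in the Tie1 window and 4 times in the Kdr window, which overlap an exon of their own gene and are not written out. At least 1 match on either strand was found in 93.4% of 32536 different windows of this length, with a median of 3 matches, so that its presence is common by itself. The longer letters AGGAAGTG, which contain the core and were searched on both strands, occurred 1 time in the Flt1 window and in 3.16% of all windows. The windows of the other 2 Erg starts in the table (chr16:95530366-95530615 and chr16:95459349-95459598, minus strand) held 4 and 2 matches of the core. These are matches of letters and no measured binding.

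Fli1 and Ets1 lie side by side on chromosome 9, outside the segment, and neither passed the genotype test. Fli1 (chromosome 9, 32422204 to 32542861) is the closest relative of Erg. It gave 2.48, 2.65, 2.97, 3.25 and 3.52 CPM in the wt HIP and 2.31 to 3.31 CPM with a median of 2.80 CPM in the Ts66Yah HIP. In the EC it gave 2.46, 2.65, 3.46, 3.62 and 3.75 CPM in wt and 2.00 to 3.24 CPM with a median of 2.88 CPM in Ts66Yah. The groups overlapped in both regions, and the log2 fold changes were -0.10 (SE 0.13, adjusted p = 0.826 by edgeR) in the HIP and -0.18 (SE 0.16, adjusted p = 0.951 by edgeR) in the EC.

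Ets1 (chromosome 9, 32636221 to 32757820), the founding member of the family and expressed in endothelial cells and lymphocytes, gave 12.8, 13.3, 13.9, 14.6 and 14.96 CPM in the wt HIP and 12.7 to 16.6 CPM with a median of 14.4 CPM in the Ts66Yah HIP. Its wt EC values were 14.7, 14.8, 16.2, 17.1 and 17.5 CPM, and the Ts66Yah values ran from 11.4 over a median of 14.8 to 17.3 CPM. Its log2 fold changes were 0.06 (SE 0.08, adjusted p = 0.817 by edgeR) and -0.13 (SE 0.10, adjusted p = 0.934 by edgeR), with overlapping groups. Of the 26 listed ETS genes 19 were tested per region, with 2 called higher in the HIP (Ets2 and Gabpa) and 1 in the EC (Ets2), whereas 0 of the 16 outside the segment were called in either region. Over all tested genes 0.591% (HIP) and 0.283% (EC) were called. The median log2 fold change of those 16 ETS genes was -0.03 (HIP) and -0.02 (EC), beside 1.4e-05 and -0.0045 for all tested genes.

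The 9 genes set beside Erg did not pass the genotype test in either region. In the HIP, 0 of 9 passed the edgeR test, against 0.591% of the 18452 genes tested there; 2 of the 9, Kdr and Tek, had an unadjusted p under 0.05, as had 11.9% of all tested genes. DESeq2 called 0 of the 9 in the HIP and 2.07% of all genes. In the EC, 0 of 9 passed, against 0.283% of 17658 genes, and 0 had an unadjusted edgeR p under 0.05, against 6.25% of all genes. DESeq2 called 0 of the 9 there and 0.486% of all genes, with 1 of the 9 at an unadjusted p under 0.05.

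Kdr, the main signalling receptor for vascular endothelial growth factor (chromosome 5, 75932827 to 75978458), had the largest genotype difference of the 9 in both regions. In the wt HIP it gave 12.7, 14.4, 16.5, 17.02 and 17.4 CPM, and in the Ts66Yah HIP 17.1 to 24.2 CPM with a median of 19.6 CPM. There, 4 of the 6 Ts66Yah libraries lay above every wt library, and the log2 fold change of 0.36 (SE 0.11) had an edgeR adjusted p of 0.228. For the EC, wt libraries held 12.2, 13.4, 13.8, 16.1 and 25.5 CPM and the Ts66Yah libraries 17.1 to 22.4 CPM with a median of 21.4 CPM. A single wt library, replicate 4, thus exceeded all Ts66Yah libraries, and the other 4 lay below them; the log2 fold change was 0.34 (SE 0.16, adjusted p = 0.813 by edgeR). Without that library it was 0.57 and was past the threshold (edgeR adjusted p = 0.0324), so the outcome of the EC test rested on 1 library.

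Tek, the receptor of the angiopoietins (chromosome 4, 94739289 to 94874976), gave 12.3, 13.1, 14.2, 14.7 and 14.96 CPM in the wt HIP and 13.7 to 19.6 CPM with a median of 16.4 CPM in the Ts66Yah HIP. Of the 6 Ts66Yah libraries, 5 lay above every wt library, and the log2 fold change of 0.26 (SE 0.09) had an edgeR adjusted p of 0.278. For the EC, wt values were 15.98, 17.6, 18.6, 19.5 and 20.99 CPM and the Ts66Yah values 16.9 to 24.2 CPM with a median of 18.9 CPM, which is 0.06 in log2 fold change (SE 0.10, adjusted p = 0.975 by edgeR). Tie1, its co-receptor (chromosome 4, 118471191 to 118490061), gave 8.61, 8.98, 11.0, 12.3 and 13.3 CPM in the wt HIP and 10.0 to 12.1 CPM with a median of 10.6 CPM in the Ts66Yah HIP. The Ts66Yah HIP libraries lay within the wt range (log2 fold change -0.00078, SE 0.11, edgeR adjusted p = 0.999). In the EC, Tie1 gave 8.57, 10.6, 11.5, 14.6 and 15.3 CPM in wt and 9.30 to 14.3 CPM with a median of 10.7 CPM in Ts66Yah (log2 fold change -0.11, SE 0.15, edgeR adjusted p = 0.975).

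Flt1, which binds the same growth factor as Kdr and acts largely as a trap for it (chromosome 5, 147561604 to 147726011), had the highest CPM of the 10 genes and was not called. It gave 59.1, 59.5, 61.4, 63.4 and 67.9 CPM in the wt HIP and 58.6 to 66.7 CPM with a median of 62.5 CPM in the Ts66Yah HIP, differing by 0.01 in log2 fold change (SE 0.05, adjusted p = 0.975 by edgeR). In the EC it gave 69.3, 70.4, 73.7, 75.5 and 79.4 CPM in wt and 61.1 to 82.2 CPM with a median of 73.0 CPM in Ts66Yah, differing by -0.03 in log2 fold change (SE 0.07, adjusted p = 0.989 by edgeR). Its SE was the smallest of the 10 genes in both regions.

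The 3 junction genes did not pass the test either. Cdh5 (chromosome 8, 104101625 to 104144511) gave 12.4, 13.1, 13.2, 13.2 and 13.4 CPM in the wt HIP and 12.0 to 15.7 CPM with a median of 12.7 CPM in the Ts66Yah HIP, which is 0.02 in log2 fold change (SE 0.08, adjusted p = 0.949 by edgeR). In the EC its values were 15.5, 17.6, 17.6, 20.3 and 21.4 CPM in wt and 13.7 to 19.4 CPM with a median of 16.2 CPM in Ts66Yah, which is -0.19 in log2 fold change (SE 0.11, adjusted p = 0.875 by edgeR). The wt HIP libraries were closest together for this gene. Pecam1 (chromosome 11, 106654217 to 106750628) gave 17.6, 19.6, 20.8, 21.2 and 21.6 CPM in the wt HIP and 18.04 to 22.8 CPM with a median of 21.7 CPM in the Ts66Yah HIP (log2 fold change 0.08, SE 0.07, edgeR adjusted p = 0.734). In the EC it gave 22.2, 24.6, 27.3, 28.1 and 28.2 CPM in wt and 20.01 to 30.7 CPM with a median of 24.99 CPM in Ts66Yah (log2 fold change -0.06, SE 0.10, edgeR adjusted p = 0.981).

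Cldn5, the main tight junction claudin of the blood-brain barrier, is also on Mmu16 (chromosome 16, 18776847 to 18778262), but proximal to the segment and present in 2 copies. The SD of its CPM was 31.9% of the mean in the wt EC, 25.02% in the Ts66Yah EC, 24.8% in the wt HIP and 10.3% in the Ts66Yah HIP. It gave 14.3, 18.5, 21.6, 25.6 and 27.4 CPM in the wt HIP and 18.1 to 23.4 CPM with a median of 19.7 CPM in the Ts66Yah HIP. In the EC it gave 18.02, 18.3, 25.8, 28.1 and 37.9 CPM in wt and 18.4 to 36.1 CPM with a median of 23.3 CPM in Ts66Yah. The log2 fold changes were -0.08 (SE 0.14, adjusted p = 0.869 by edgeR) and -0.06 (SE 0.20, adjusted p = 0.992 by edgeR), and every Ts66Yah library lay below the highest wt library of its region.

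**Figure D2:**
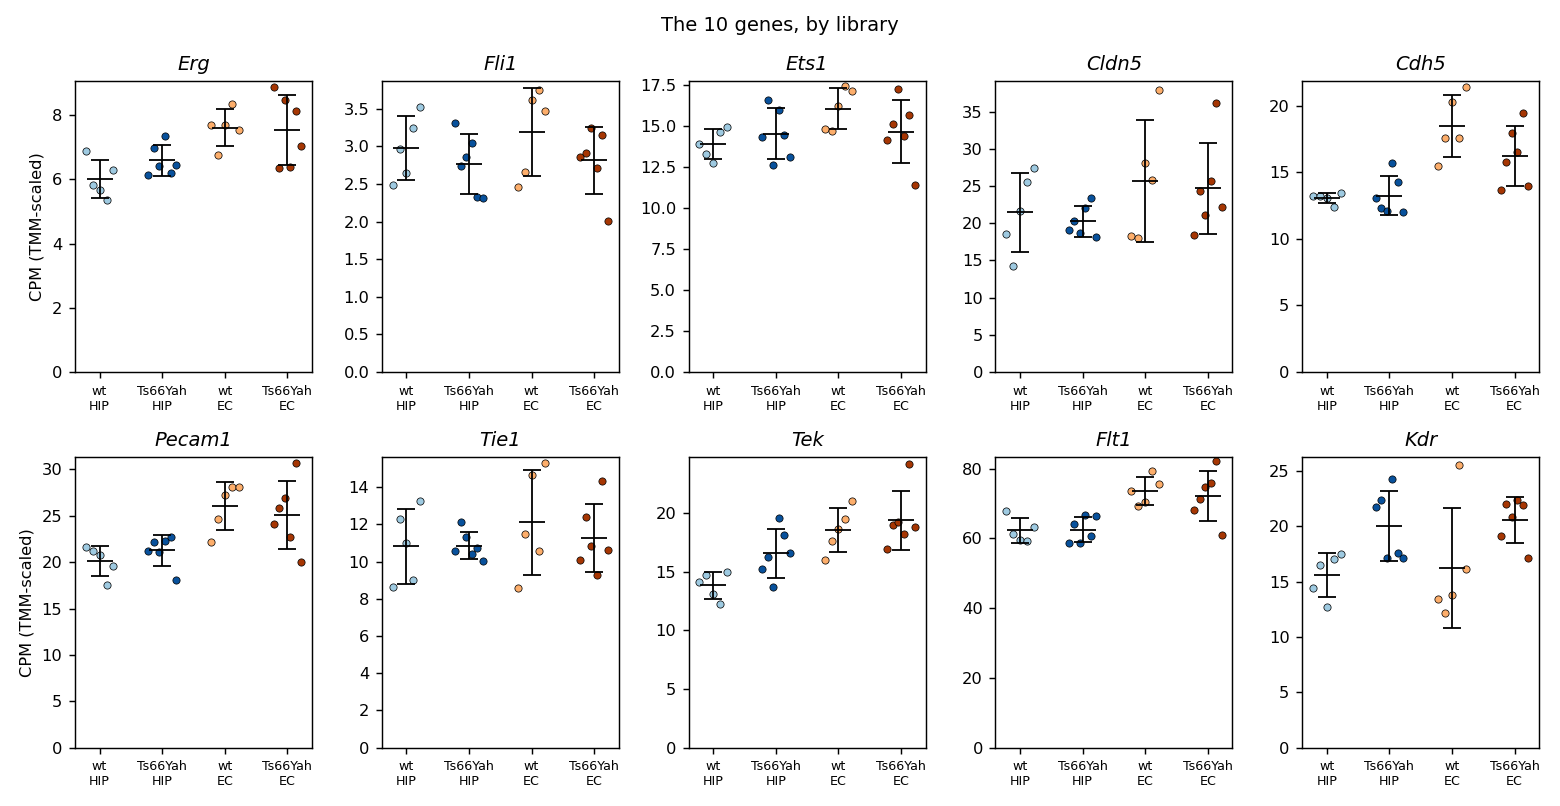
Level in CPM of the 10 genes by library in the 4 groups, with the mean and SD of each group as bars; the y axes start at 0 and differ between panels. In every panel the wt and Ts66Yah libraries of a region overlap, as for Kdr in the EC, where 1 wt library stood at 25.5 CPM above the Ts66Yah libraries.

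**Figure D3:**
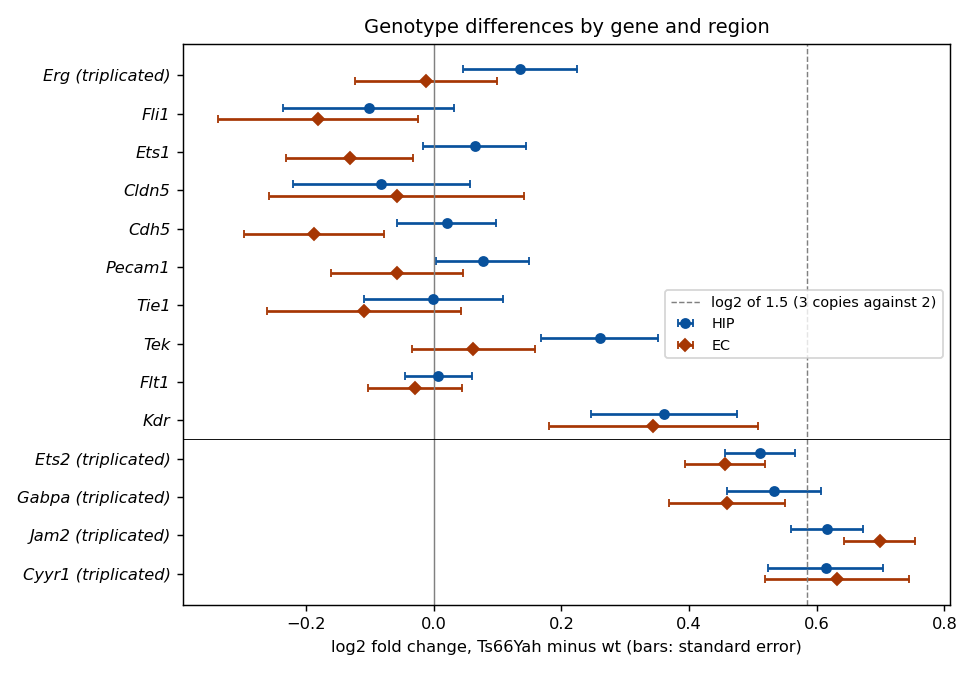
Log2 fold change between Ts66Yah and wt for the 10 genes (above the line) and 4 further genes of the segment (below it), in the HIP (circles) and the EC (diamonds), with SE bars; the dashed line marks the log2 of 1.5. Erg lay at 0.14 and -0.01, left of the 4 other triplicated genes, which lay between 0.46 and 0.70.

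The wider endothelial list was counted in the same way. All 42 genes were tested in both regions, and 2 were called in each (Jam2 and Cyyr1). Of the 40 outside the segment 0 were called. The shares called over all tested genes were 0.591% (HIP) and 0.283% (EC). All counts of called genes in this paragraph stand beside these shares. At an unadjusted edgeR p under 0.05 there were 9 of the 42 in the HIP and 5 in the EC, Jam2 and Cyyr1 included, beside 11.9% and 6.25% of all tested genes. The median log2 fold change of those 40 was 0.04 (HIP) and -0.05 (EC). The summed level of the list ran from 847 to 975 CPM in the wt HIP and from 954 to 1089 CPM in the Ts66Yah HIP. In the EC it ran from 1039 to 1201 CPM in wt and from 994 to 1327 CPM in Ts66Yah, so the genotypes overlapped in both regions. Of 28 genes for vascular ligands and receptors 0 were called in either region, with 6 in the HIP and 4 in the EC at an unadjusted edgeR p under 0.05, read against the same shares over all genes. Of 15 genes that have been reported as targets of ERG 0 were called, with 4 (HIP) and 1 (EC) at an unadjusted p under 0.05, beside 11.9% and 6.25% of all genes, and a median of 0.11 (HIP) and 0.04 (EC) on the log2 scale.

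Markers of the other cell types were counted in the same way, and 0 genes of the mural, microglia, blood, choroid plexus, meningeal, astrocyte and neuron lists were called between the genotypes in either region. Of all tested genes 0.591% (HIP) and 0.283% (EC) were called. The choroid plexus list includes Kcne2 and Clic6 of the triplicated segment. Of its tested genes, 8 of 10 (HIP) and 6 of 7 (EC) lay outside the segment. The median log2 fold change of the 16 mural genes was -0.12 (HIP) and -0.24 (EC), and that of the 12 microglia genes -0.12 and -0.13. For the 11 meningeal and fibroblast genes it was 0.17 (HIP) and -0.40 (EC), where 1 of the 11 was above 0. The part of these shifts in the values of the endothelial genes was not tested.

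Erg was also set against the markers in the same library, which takes out differences in the amount of endothelial RNA as far as these 7 genes measure it. The difference between the log2 CPM of Erg and the mean log2 CPM of the 7 markers was -1.63 ± 0.141 in the wt HIP (SD, n = 5) and -1.59 ± 0.0836 in the Ts66Yah HIP (SD, n = 6). In the EC it was -1.56 ± 0.182 (SD, n = 5) and -1.59 ± 0.268 (SD, n = 6). The genotypes differed in this relative level by 0.04 (SE 0.07) in the HIP and by -0.03 (SE 0.14) in the EC, less than the spread between libraries. Erg had been chosen on the same genotype values, so this is a description. For Ets2 the same quantity was higher in Ts66Yah by 0.42 (SE 0.09) in the HIP and by 0.45 (SE 0.14) in the EC. Ets2 is of broad expression, so endothelial markers do not adjust for its cell source. For Fli1 the differences were -0.20 (SE 0.11) and -0.18 (SE 0.09). The 7 markers themselves differed by 0.10 (SE 0.06) in the HIP and 0.01 (SE 0.12) in the EC on the log2 scale.

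**Figure D4:**
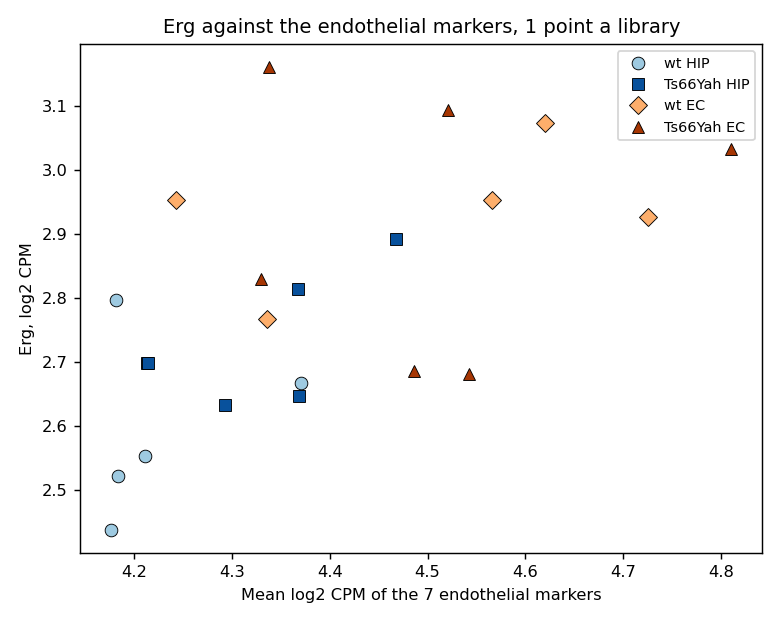
Log2 CPM of Erg against the mean log2 CPM of the 7 endothelial markers, 1 point per library and 1 symbol per group. The wt and Ts66Yah points of a region are intermingled, and Erg lay on average 1.56 to 1.63 below the markers in all 4 groups.

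The second comparison asked how the 10 genes differed between the regions. The rule that picked Erg did not use this difference, but the genes were chosen with earlier results of these data known. In the wt mice, 6 of the 10 were called and all 6 were higher in the EC: Erg, Ets1, Cdh5, Pecam1, Tek and Flt1. Over all genes tested in this comparison, 47.7% were called in either direction and 23.4% were called higher in the EC. DESeq2 called 6 of the 10 as well, and 37.9% of all genes. Libraries of the same mouse share an animal, and with the animal as a block 7 of the 10 and 53.3% of all genes were called, Cldn5 being added (log2 difference 0.24, SE 0.09, edgeR adjusted p = 0.0340, against 0.345 without the block).

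In wt, Erg had a mean of 6.01 CPM in the HIP and 7.61 CPM in the EC, and it was called higher in the EC, by 0.34 on the log2 scale (SE 0.10, adjusted p = 0.0133 by edgeR). It was higher in the EC in 5 of 5 animals, by 0.16 to 0.64 on the log2 scale, while the groups of libraries overlapped. The call was lost without the animal of replicate 3 (edgeR adjusted p = 0.0617) or of replicate 4 (edgeR adjusted p = 0.0590). Ets1 was higher by 0.21 (SE 0.08, adjusted p = 0.0433 by edgeR) and in 5 of 5 animals, but leaving out any one of the 5 animals ended its call, with adjusted p-values of 0.0639 to 0.165. Fli1 differed by 0.11 (SE 0.16, adjusted p = 0.605 by edgeR) and was higher in the EC in 2 of 5 animals.

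Of the 7 endothelial markers, 4 were called in this comparison. Cdh5 had the largest difference, from 13.1 to 18.5 CPM or 0.50 on the log2 scale (SE 0.09, adjusted p = 0.000499 by edgeR). Tek differed by 0.42 (SE 0.09, adjusted p = 0.00160 by edgeR), Pecam1 by 0.37 (SE 0.08, adjusted p = 0.00284 by edgeR) and Flt1 by 0.24 (SE 0.06, adjusted p = 0.00521 by edgeR). For these 4 genes the EC and HIP libraries of wt mice did not overlap, as for 35.4% of all tested genes, each was higher in the EC in 5 of 5 animals, and each stayed called when any one animal was left out. Cldn5 (0.26, SE 0.21, adjusted p = 0.345 by edgeR), Tie1 (0.16, SE 0.17, adjusted p = 0.451 by edgeR) and Kdr (0.06, SE 0.18, adjusted p = 0.817 by edgeR) did not pass the test.

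In the Ts66Yah mice, 3 of the 10 genes were called, all higher in the EC, against 54.0% of all tested genes called in either direction and 26.4% called higher in the EC. They were Cdh5 (0.29, SE 0.10, adjusted p = 0.0217 by edgeR), Flt1 (0.20, SE 0.07, adjusted p = 0.0177 by edgeR) and Pecam1 (0.23, SE 0.09, adjusted p = 0.0436 by edgeR). With the animal as a block 5 of the 10 and 59.0% of all genes were called, Cldn5 (edgeR adjusted p = 0.0139, against 0.0903 without it) and Tek (edgeR adjusted p = 0.0268, against 0.0656) being added. Erg was 6.59 CPM in the HIP and 7.55 CPM in the EC, a log2 difference of 0.19 (SE 0.10, adjusted p = 0.124 by edgeR), higher in the EC in 4 of 6 animals with a range of -0.21 to 0.53. Without the animal of replicate 4 the difference was 0.27 and was past the threshold (edgeR adjusted p = 0.0447). Ets1 (0.01, SE 0.10), Fli1 (0.02, SE 0.14), Tie1 (0.05, SE 0.10) and Kdr (0.04, SE 0.10) had adjusted p-values of 0.704 to 0.935 in the edgeR test.

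These calls in Ts66Yah depended on single animals. Leaving out the animal of replicate 3 left 0 of the 10 called, leaving out that of replicate 2 or of replicate 5 left 1, and leaving out that of replicate 4 gave 5. The log2 differences moved less, from 0.23 to 0.34 for Cdh5, from 0.19 to 0.27 for Pecam1 and from 0.15 to 0.27 for Flt1.

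**Figure D5:**
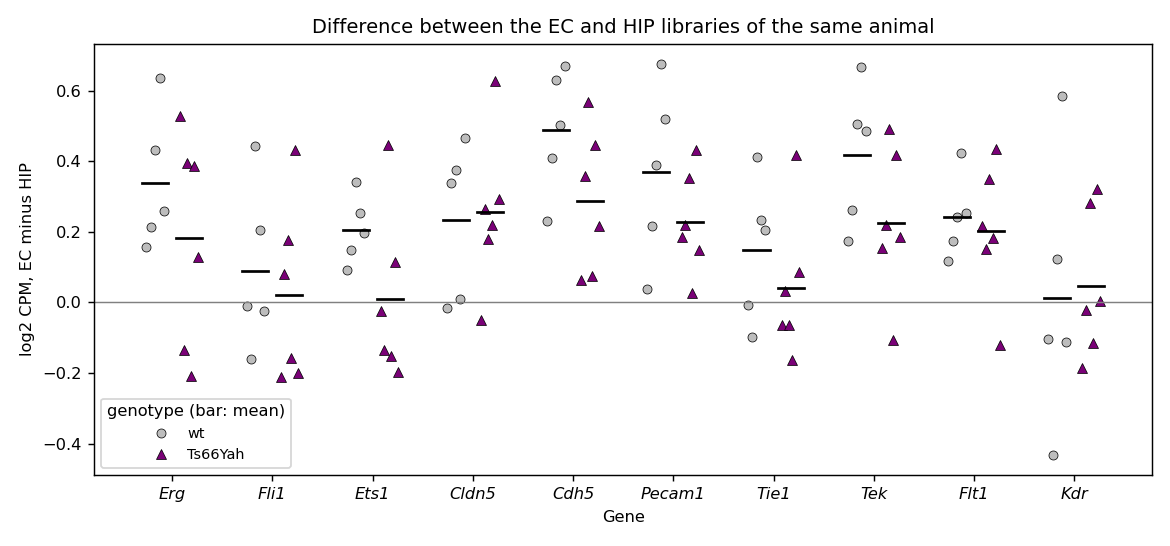
Difference in log2 CPM between the EC and the HIP library of the same animal for each of the 10 genes, with 1 point per animal (circles wt, triangles Ts66Yah) and bars for the means. Cdh5 and Pecam1 lay above 0 in every animal, and Erg in 5 of 5 wt and 4 of 6 Ts66Yah animals.

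A call in wt and none in Ts66Yah does not show that the genotypes differ, so the difference was tested itself. The interaction of genotype and region was called for 0 of the 9 genes set beside Erg and for 0% of the 19074 genes tested with edgeR. Of all tested genes 388 had an unadjusted p under 0.05. That fit took the libraries of a mouse as separate. With the animal as a block 0 genes were called as well, with 726 at an unadjusted p under 0.05. DESeq2 also called 0 genes, with 560 at an unadjusted p under 0.05. For Erg the genotype difference in the EC minus that in the HIP was -0.15 (SE 0.14). This is a description, since Erg had been chosen on its genotype differences. For Ets1, Cdh5 and Tek it was -0.19 (SE 0.13), -0.21 (SE 0.14) and -0.20 (SE 0.14), with an edgeR adjusted p of 0.999963 for each. None of the 9 genes set beside Erg had an unadjusted p under 0.05 in this test, with edgeR or with DESeq2.

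The other genes of the lists were read beside these results. Of the 42 endothelial genes, 14 were called higher and 2 lower in the EC in wt. Their median log2 difference was 0.21 beside 0.01 over all tested genes. In Ts66Yah 12 of the 42 were called higher and 2 lower, with a median of 0.14. Over all tested genes, 47.7% (wt) and 54.0% (Ts66Yah) were called in either direction, and 23.4% and 26.4% were called higher in the EC. Outside the 10 genes, the 3 called genes with the largest difference in wt were the transporter Abcg2 (0.59, SE 0.10, adjusted p = 0.000297 by edgeR), the membrane protein Itm2a (0.55, SE 0.08, adjusted p = 9.09e-05 by edgeR) and occludin (Ocln), a tight junction protein that was lower in the EC (-0.54, SE 0.12, adjusted p = 0.00284 by edgeR). The triplicated Jam2 was higher in the EC in wt (0.25, SE 0.07, adjusted p = 0.00729 by edgeR) and in Ts66Yah (0.33, SE 0.05, adjusted p = 3.42e-05 by edgeR). Cyyr1 was not called in wt (0.16, SE 0.12, adjusted p = 0.302 by edgeR) or in Ts66Yah (0.17, SE 0.09, adjusted p = 0.105 by edgeR).

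Of the 19 tested ETS genes, 5 were called higher and 3 lower in the EC in wt, and 4 higher and 4 lower in Ts66Yah. The shares called over all tested genes were 47.7% (wt) and 54.0% (Ts66Yah) in either direction. The largest differences in wt were those of the repressor Etv6 (0.91, SE 0.07, adjusted p = 3.78e-07 by edgeR), of Etv5 (0.63, SE 0.08, adjusted p = 3.66e-05 by edgeR) and of Gabpa, which was lower in the EC (-0.38, SE 0.09, adjusted p = 0.00386 by edgeR). Ets2 was higher in the EC in wt (0.35, SE 0.07, adjusted p = 0.000908 by edgeR) and in Ts66Yah (0.29, SE 0.05, adjusted p = 0.000289 by edgeR), and Gabpa was lower in Ts66Yah too (-0.46, SE 0.07, adjusted p = 0.000101 by edgeR). The triplicated ETS genes other than Erg thus differed between the regions in opposite directions.

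Among 27 tested vascular ligands and receptors 7 were called higher and 7 lower in the wt EC, beside 47.7% of all tested genes in either direction. The largest differences were those of the co-receptor Nrp1, which neurons also express (-1.999, SE 0.10, adjusted p = 9.50e-09 by edgeR), and of the growth factors Vegfd (1.98, SE 0.31, adjusted p = 0.000177 by edgeR) and Pgf (-0.996, SE 0.12, adjusted p = 2.08e-05 by edgeR). In Ts66Yah 6 were called higher and 9 lower, beside 54.0% of all tested genes in either direction. Of the 15 genes reported as ERG targets, 3 were called higher in the wt EC, namely Cdh5, Tek and Egfl7 (0.28, SE 0.09, adjusted p = 0.0183 by edgeR), and 0 lower. In Ts66Yah 2 were called higher and 1 lower. Both counts of these targets stand beside the same shares over all genes, 47.7% in wt and 54.0% in Ts66Yah.

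Markers of other cell types were counted between the regions as well, here and in the next paragraph. These counts stand beside 47.7% (wt) and 54.0% (Ts66Yah) of all tested genes called in either direction. Called higher in the EC were 23.4% and 26.4% of all tested genes. The part of these cell types in the endothelial differences was not tested. All 9 tested choroid plexus genes were lower in the wt EC and all 10 in the Ts66Yah EC, and their summed level ran from 370 to 5538 CPM in the wt HIP and from 212 to 307 CPM in the wt EC. In wt the largest were Ttr (-7.05), Folr1 (-5.43) and Prlr (-5.26 on the log2 scale, edgeR adjusted p = 2.63e-05). Blood cell genes were higher, 8 of the 10 tested in the wt EC and 6 of 9 in Ts66Yah, led in wt by Hbb-bt (2.47), S100a8 (1.73) and Pf4 (1.57), and their summed level ran from 129 to 216 CPM in the wt HIP and from 256 to 682 CPM in the wt EC.

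Microglia genes were called higher in the EC for 6 of 12 in wt and 10 of 12 in Ts66Yah, led in wt by Fcrls (0.75), P2ry12 (0.47) and C1qa (0.46), with summed levels of 454 to 592 CPM in the wt HIP and 562 to 802 CPM in the wt EC. Of the 16 mural genes, which mark pericytes and smooth muscle, 3 were called higher and 1 lower in the wt EC (2 and 2 in Ts66Yah), led in wt by Anpep (0.85), Vtn (0.60) and Myh11 (-0.52), with summed levels of 227 to 278 and 266 to 334 CPM. Of the 11 meningeal genes 6 were called higher and 1 lower in the wt EC, led by Slc22a6 (2.08), Slc6a13 (1.59) and Col3a1 (1.17), and 1 higher and 1 lower in Ts66Yah. Astrocyte genes were called higher for 5 of 8 and lower for 1 in wt, led by Gfap (-2.01), Aldh1l1 (0.54) and Aldoc (0.42), and neuron genes higher for 5 of 8 and lower for 1, led by Stmn2 (0.54), Slc17a7 (0.44) and Syt1 (0.43). In Ts66Yah 5 astrocyte genes were called higher and 2 lower, and 4 neuron genes higher and 1 lower. Every defining marker of these types was above 0 in every library, the lowest value being 0.0563 CPM for Folr1 in the EC.

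The levels of the 10 genes were also put in order, as CPM per kilobase of exon, since CPM alone favours long transcripts. Cldn5 was highest in all 4 groups (15.2 ± 3.76 CPM per kilobase in the wt HIP, SD, n = 5) and Flt1 followed (4.61 ± 0.266 CPM per kilobase). Pecam1, Cdh5 and Tek came next, at 3.24, 3.11 and 2.94 CPM per kilobase in the wt HIP, where their ranges overlapped, and they changed places between groups. Tie1 (2.20), Erg (1.73), Kdr (1.73) and Ets1 (1.64 CPM per kilobase) followed, and each overlapped its neighbour in the wt HIP. Tie1 (up to 2.70) also overlapped Tek (from 2.60 CPM per kilobase) there, so these genes were not set apart from those above. Fli1 was the lowest gene in all 4 groups, at 0.853 ± 0.122 CPM per kilobase in the wt HIP (SD, n = 5), and did not overlap the gene above it in any group. Erg was 7th in both wt groups and 8th in both Ts66Yah groups, where Kdr stood above it, with overlapping ranges.

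Across the libraries of a region, Erg was set against each of the 9 other genes. Of the 18 relations 0 passed the threshold after Benjamini-Hochberg adjustment, by Pearson's r or by Spearman's rho. The closest was with Flt1 in the HIP, with r = 0.73 (permutation p = 0.0115, adjusted p = 0.165) and rho = 0.69 (permutation p = 0.0229, adjusted p = 0.412) over 11 libraries, and r was 0.64 without the 2 libraries farthest from the median. With Tek in the HIP r was 0.69 (permutation p = 0.0184, adjusted p = 0.165) and rho 0.62 (permutation p = 0.0474, adjusted p = 0.427), and r fell to 0.28 without the 2 farthest libraries, so that relation rested on them. In the EC, r with Flt1 was 0.26 and with Tek 0.13. With Fli1, the closest relative, r was -0.21 (HIP) and 0.42 (EC).

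As a description, genes were ranked by how closely they followed Erg over all 22 libraries after each region's mean had been taken out of the log2 CPM. The 10 closest of the genes with at least 5 CPM in both regions were Epb41l2 (r = 0.74), Arhgap31 (0.67), Hbegf (0.67), Crot (0.66), Itgav (0.66), Rragd (0.66), S100b (0.66), Dio2 (0.64), Stard8 (0.63) and Ak3 (0.63). The endothelial list had 35 genes in this ranking, with a median r of 0.30 beside 0.00 for all genes. A positive r was found for 33 of the 35, against 50.2% of all genes, and 3 of the 35 (Adgrl4, Abcb1a and Slco1c1) were among the first 100 genes. Of the other 9 genes, Pecam1 (0.44), Flt1 (0.42), Ets1 (0.42) and Tek (0.40) ranked highest. The libraries share their depth, their composition and, in pairs, their animals.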

How the data were processed

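RNA-Seq was measured in the HIP and EC of 5 wt and 6 Ts66Yah male mice, and groups, replicate numbers and animals were taken from the labels. According to the study's methods, single-end reads of 50 bases were mapped with Hisat2 to GRCm38 (Ensembl release 99) and counted with HTSeq-count; tool versions, strand setting and multi-mapping were not given in the sources used here. The labels name poly(A) selection, the methods also a total RNA kit. The authors deposited raw counts per gene for the 22 libraries, which were used as deposited. Their 4 tables of fold changes, scores and p-values hold the authors' own comparisons and were not used.

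Symbols and positions came from GENCODE M21 (GRCm38; 55144 of 55385 identifiers matched) and upstream sequences from RefSeq. Fli1, Ets1 and Cdh5 overlap other annotated genes, with no shared exon and at most 4 reads each. The test was edgeR 4.0.16 (R 4.3.3) with filterByExpr, TMM factors within each comparison and the quasi-likelihood fit. CPM in the text were scaled by TMM over all 22 libraries, with a prior count of 2 on the log2 scale. Genotypes were compared within a region, regions within a genotype, and the interaction over all 22 libraries. The procedure was tested on simulated data. The members and lists were chosen with earlier results of these data known, and lists are described by counts and medians only. Alternatives were DESeq2 1.42.0, RLE factors, no filter, 1 fit of all libraries, blocks, and leaving out each library or animal.

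Named were all 10 genes, the triplicated genes of the ETS and endothelial lists, called list genes (at most 5 a list between genotypes, the 3 largest in wt between regions), the 3 tested neighbours of Erg on each side and the 10 genes closest to it. HIP and EC libraries with the same replicate number come from the same animal per the labels, and their deviations from the group means correlated by 0.207 to 0.454. No 2 libraries of a group were repeats of each other (chi-square per gene of at least 10.5 over 50 pairs). Correlations used 100000 permutations, two-sided.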

Additional observations from a re-analysis of the deposited data

Results flagged for a closer look

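The libraries of each group were searched for single values far from the others, over 14 genes (the 10 and Ets2, Gabpa, Jam2 and Cyyr1) in 4 groups, or 56 sets of values. Chance alone flags about 1 in 20 such sets, and 3 were found. Pecam1 in replicate 6 of the Ts66Yah HIP stood at 18.04 CPM, below the 21.1 to 22.8 CPM of the other 5 libraries. Tek in replicate 5 of the Ts66Yah EC stood at 24.2 CPM, above the 16.9 to 19.2 CPM of the others. Gabpa in replicate 2 of the Ts66Yah HIP stood at 33.1 CPM, below the 40.2 to 43.0 CPM of the others, and still above every wt HIP library. The cause was not tested for any of them.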

How the results depend on the processing

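Between the genotypes, 0 of the 9 genes were called in the HIP under every alternative run, and 0 to 1 in the EC when 1 library was left out (Kdr without wt replicate 4). In Ts66Yah the number of the 10 genes called between regions was 5 with the animal as a block and 0 to 5 when 1 animal was left out, against 3. In wt it was 4 to 5 when 1 animal was left out, against 6. The cause was not tested. The wt and Ts66Yah replicate numbers are only shared numbers (correlation of deviations -0.0087 to 0.0606 in the HIP and 0.0188 to 0.192 in the EC). A block for them gave 61 calls over all genes instead of 109 in the HIP, and left Gabpa (HIP, edgeR adjusted p = 0.0740) and Cyyr1 (EC, edgeR adjusted p = 0.1505) uncalled. DESeq2 called 369 genes in the HIP and 109 instead of 50 in the EC, and 1 fit of all libraries gave 79 in the EC. A block for the range of animal numbers, which also leaves out wt replicate 1, gave 68 calls in the HIP, where leaving out that library alone gave 84. Cyyr1 in the EC was not called with that block (edgeR adjusted p = 0.146) or without that library alone (edgeR adjusted p = 0.0899).

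Signs changed only for values that were not called. In the HIP, Tie1 was 0.00036 with RLE factors and 0.043 with the replicate block, and Flt1 was -0.011 with that block, while Flt1 in the EC was 0.014 with it. Kdr in the interaction was 0.031 with the animal as a block. With 1 library left out, the HIP values ran from -0.20 to 0.022 for Cldn5, from -0.037 to 0.049 for Cdh5, from -0.069 to 0.081 for Tie1 and from -0.014 to 0.042 for Flt1. In the EC they ran from -0.065 to 0.034 for Erg, from -0.20 to 0.12 for Cldn5, from -0.0095 to 0.11 for Tek and from -0.069 to 0.015 for Flt1. Between regions in wt, Kdr ran from -0.13 to 0.17. In Ts66Yah, Fli1 ran from -0.056 to 0.075, Ets1 from -0.078 to 0.047, Tie1 from -0.035 to 0.085 and Kdr from -0.017 to 0.081. In the interaction, Fli1 ran from -0.16 to 0.016, Cldn5 from -0.069 to 0.11, Flt1 from -0.084 to 0.026 and Kdr from -0.12 to 0.18. Erg was read by only 142 to 324 counts per library, which limits its precision.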

Other observations

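Aplnr, the receptor of the endothelial peptide apelin, had the largest genotype difference among the vascular ligands and receptors and was singled out after its values were seen. It stood at 0.252 ± 0.0851 CPM in the wt HIP (SD, n = 5) and 0.845 ± 0.437 CPM in the Ts66Yah HIP (SD, n = 6), which is 1.74 in log2 fold change (SE 0.44, adjusted p = 0.116 by edgeR). In the EC the values were 0.257 ± 0.176 and 0.643 ± 0.133 CPM, which is 1.30 in log2 fold change (SE 0.45, adjusted p = 0.599 by edgeR). There every Ts66Yah library (0.484 to 0.878 CPM) lay above every wt library (0 to 0.430 CPM). The groups were apart in either direction for 0.957% of all tested genes in the EC. Neither passed the test, and the gene was near the limit of detection. The pericyte receptor gene Pdgfrb, also singled out afterwards, was 29.4 ± 2.84 CPM in the wt EC and 23.6 ± 2.86 CPM in the Ts66Yah EC, which is -0.32 in log2 fold change (SE 0.09, adjusted p = 0.421 by edgeR), and -0.18 (SE 0.06, adjusted p = 0.264 by edgeR) in the HIP. Rgs5, the other defining mural marker, went the other way. Its medians were 74.0 (wt) and 90.2 CPM (Ts66Yah) in the HIP, and 76.6 and 95.8 CPM in the EC. Of the 16 mural genes, 5 (HIP) and 2 (EC) had a log2 fold change above 0.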
